A study of Mus musculus with 77 samples.

Results

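Myelin and oligodendrocyte genes were examined in the mRNA that was bound to Argonaute 2 (AGO2) in the BNST (bed nucleus of the stria terminalis), a region of the forebrain with a role in anxiety. The 9 genes were taken by symbol (Mbp, Mog, Mag, Mobp, Cnp, Cldn11, Mal, Ermn and Sox10), and all 9 were among the 16587 genes of the AGO2 mRNA data. The mice were male C57BL/6Crl (B6) animals that had undergone chronic social defeat stress (CSDS) and were classed as resilient or susceptible, or had served as same-strain controls. Each library came from a pool of 3 BNST of mice aged 8 weeks, with tissue taken 6 to 8 days after the last defeat, and there were 5 control, 5 resilient and 4 susceptible pools. Blood mRNA of 25 single mice, from B6 (5 control, 5 resilient, 5 susceptible) and DBA/2Crl (D2; 5 control, 5 susceptible), was used to ask which of the 9 genes are also measured there. Apart from social defeat the mice received no treatment that the labels name.

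Oligodendrocytes wrap the axons of the central nervous system with myelin, a stack of lipid-rich membrane held together by a small set of abundant proteins. Sox10 switches on many of the genes for these proteins, and the mRNA of some of them, that of Mbp above all, is carried into the myelin sheath before it is translated. AGO2 is the protein that holds a mature microRNA (miRNA) and, through it, the mRNAs that the miRNA pairs with. The values below are therefore levels of AGO2-bound mRNA. No library of the input RNA was used here, so less RNA and less binding to AGO2 cannot be told apart. In pooled tissue, fewer oligodendrocytes and less RNA per oligodendrocyte cannot be told apart either.

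Reads on the retained genes ranged from 3701281 to 10659882 per AGO2 mRNA pool, and resilient pool 3 was the deepest. Values are log2 CPM (CPM, a gene's reads scaled to a library of fixed size), as deposited. A gene was called different where its fold change was 1.2 or more and its unadjusted p below 0.05 in limma, which was fitted to all genes and all 14 pools. Adjusted p-values are Benjamini-Hochberg values over all genes. The study corrected these mRNA values for the experimental cohort, but the deposited values do not hold that correction and the labels give no cohort, so cohort and group cannot be told apart. P-values measure the spread between these pools. Both comparisons with controls use the same 5 control pools and are not independent of each other.

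In resilient pools against controls, 5 of the 9 genes were called lower (Mal, Ermn, Cldn11, Cnp and Sox10), 1 was called higher (Mag) and 3 were not called (Mbp, Mog and Mobp). Among all genes, 9.04% were called lower and 8.65% higher in this comparison. In susceptible pools against controls, the counts were again 5 lower, 1 higher and 3 not called, for the genes given with their values below, where 9.28% of all genes were called lower and 9.65% higher. At an adjusted p under 0.05, 2 of the 9 genes were lower in resilient pools (background 0.633% of genes) and 4 were lower in susceptible pools (background 1.71%). The median log2 fold change of the 9 genes was -0.27 in resilient and -0.44 in susceptible pools, against -0.021 and -0.011 for all genes.

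**Figure D1:**
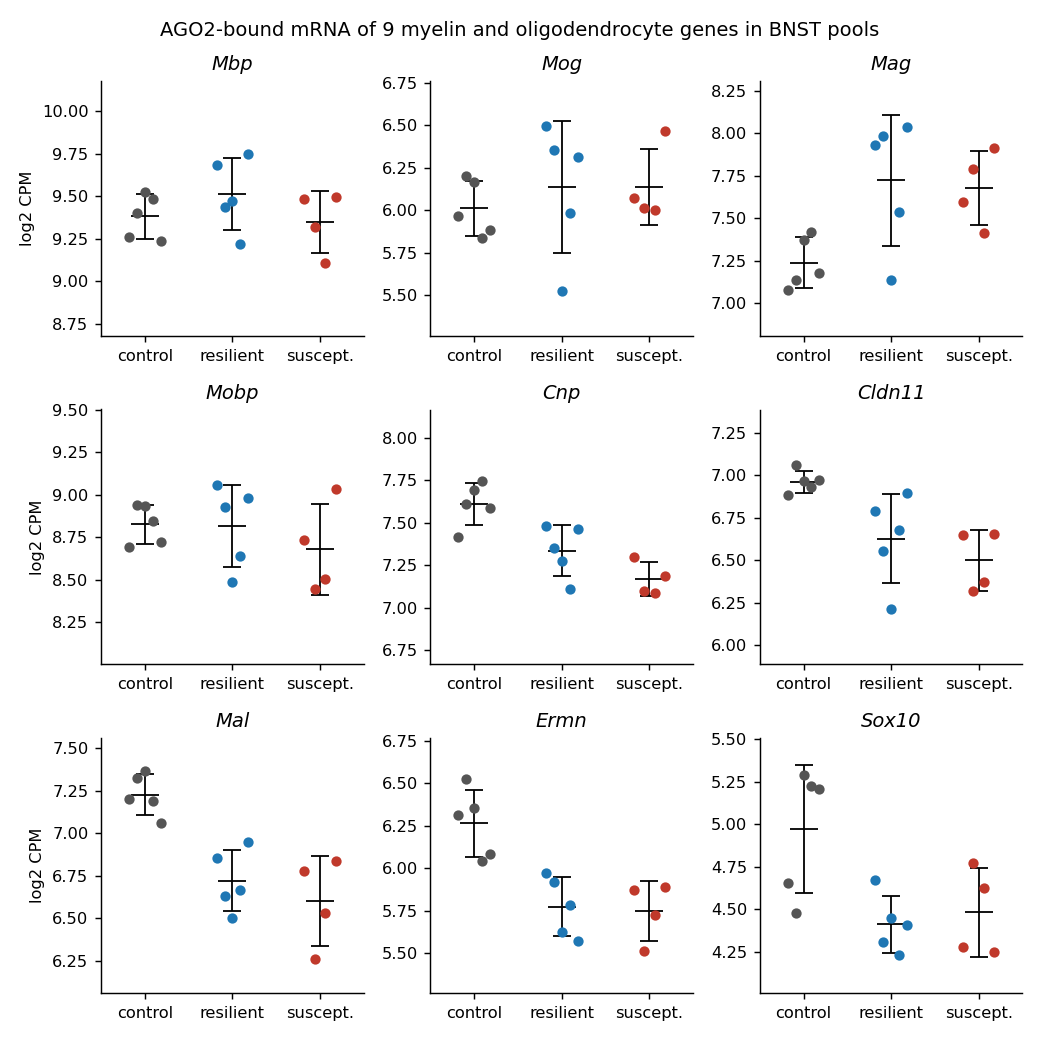
Log2 CPM of the 9 genes in each AGO2 mRNA pool; points are pools (5 control, 5 resilient, 4 susceptible), horizontal bars are means and whiskers are SD. Every panel spans 1.5 log2 units on its own axis. All resilient and susceptible pools lie below all control pools for Mal and Ermn, while Mag is higher in most of them.

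Mbp and Mobp encode small basic proteins that hold the cytoplasmic faces of compact myelin together. Mbp lies on chromosome 18 (82475146 to 82585637, plus strand, GRCm38) and Mobp on chromosome 9 (120149707 to 120181484, plus strand). Mbp ranged from 9.24 to 9.53 log2 CPM in controls, from 9.22 to 9.75 in resilient and from 9.11 to 9.49 in susceptible pools. The 3 groups overlapped, with log2 fold changes of 0.13 in resilient (95% interval -0.10 to 0.36) and -0.031 in susceptible pools (-0.28 to 0.22). Mobp ranged from 8.69 to 8.94 in controls, from 8.49 to 9.06 in resilient and from 8.45 to 9.04 in susceptible pools. Its groups overlapped as well, and its log2 fold changes were -0.0087 (-0.27 to 0.25) and -0.15 (-0.43 to 0.13). Both genes spread more widely in the stressed groups than in controls, with SDs of 0.21 and 0.18 against 0.13 for Mbp and of 0.24 and 0.27 against 0.12 for Mobp.

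Mal encodes a proteolipid that takes part in sorting membrane proteins to myelin, and lies on chromosome 2 (127633226 to 127656695, minus strand). In control pools 1 to 5 it stood at 7.20, 7.33, 7.36, 7.19 and 7.06 log2 CPM, in resilient pools 1 to 5 at 6.85, 6.63, 6.50, 6.67 and 6.95, and in susceptible pools 1 to 4 at 6.77, 6.26, 6.53 and 6.84. No pool of either stressed group reached the lowest control. The log2 fold change was -0.51 in resilient pools (SE 0.11, adjusted p = 0.0339, exact permutation p = 0.00794) and -0.63 in susceptible pools (SE 0.12, adjusted p = 0.0129, exact permutation p = 0.00794). These correspond to 0.703 and 0.647 of the control level.

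Cldn11 encodes the claudin that forms the tight junctions between turns of myelin, and lies on chromosome 3 (31149920 to 31164324, plus strand). Its control pools lay close together at 6.88, 7.06, 6.97, 6.93 and 6.97 log2 CPM, whereas resilient pools 1 to 5 lay at 6.79, 6.55, 6.22, 6.68 and 6.89 and susceptible pools at 6.65, 6.32, 6.37 and 6.66. Resilient pool 5 overlapped the controls, and no susceptible pool did. It was lower by limma in susceptible pools (log2 fold change -0.46, SE 0.12, adjusted p = 0.0418) and called lower at the unadjusted threshold in resilient pools (-0.34, SE 0.11, adjusted p = 0.115). Without resilient pool 3 the second value was -0.23, and the gene was no longer called there.

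Cnp encodes the phosphodiesterase that lines the cytoplasmic channels of myelin, and lies on chromosome 11 (100574904 to 100591729, plus strand). Control pools 1 to 5 held 7.42, 7.61, 7.69, 7.75 and 7.59 log2 CPM, resilient pools 7.48, 7.35, 7.27, 7.11 and 7.47, and susceptible pools 7.30, 7.10, 7.09 and 7.19. All 4 susceptible pools lay below control pool 1, the lowest control, while resilient pools 1 and 5 lay above it. The log2 fold change was -0.44 in susceptible pools (SE 0.10, adjusted p = 0.0209) and -0.27 in resilient pools (SE 0.09, adjusted p = 0.109). The resilient call lay near the fold threshold and did not survive the removal of pool 3 or 4 of the controls, or of pool 3 or 4 of the resilient group, with values as small as -0.22. Dnajc7 shares 4.23% of the exon bases of Cnp on the opposite strand, and although the libraries were made with a strand-specific kit, the strand setting of the counting is not given in the sources used here.

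Ermn encodes ermin, a protein of the oligodendrocyte cytoskeleton that binds actin, and lies on chromosome 2 (58045113 to 58052864, minus strand). Controls held 6.31, 6.52, 6.35, 6.04 and 6.08 log2 CPM, resilient pools 5.97, 5.92, 5.62, 5.78 and 5.57, and susceptible pools 5.87, 5.51, 5.73 and 5.89. Again no stressed pool overlapped the controls. The log2 fold changes were -0.49 (SE 0.12, adjusted p = 0.0383) in resilient and -0.51 (SE 0.12, adjusted p = 0.0302) in susceptible pools.

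Mal and Ermn were thus the 2 genes for which every resilient pool lay below every control pool, an order that 2.18% of all genes showed. For susceptible pools, 4 of the 9 genes (Mal, Ermn, Cnp and Cldn11) had this order, against 5.05% of all genes.

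Sox10, the transcription factor of the group, lies on chromosome 15 (79154908 to 79165240, minus strand) and had the lowest level of the 9 genes, with between 71 and 234 reads per pool. Control pools 1 to 5 stood at 4.66, 4.48, 5.29, 5.23 and 5.21 log2 CPM, resilient pools at 4.67, 4.31, 4.45, 4.23 and 4.40, and susceptible pools at 4.28, 4.77, 4.63 and 4.25. The controls fell into 3 high pools and 2 low ones, and the low ones overlapped both stressed groups. Sox10 was called lower in resilient (log2 fold change -0.56, SE 0.17, adjusted p = 0.0777) and in susceptible pools (-0.49, SE 0.18, adjusted p = 0.119), but neither difference passed the adjusted threshold. The exact permutation p was 0.0238 for the former and 0.0714 for the latter.

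Mag encodes a sialic acid-binding adhesion molecule of the innermost myelin membrane, which faces the axon, and lies on chromosome 7 (30899176 to 30914873, minus strand). Control pools held 7.08, 7.14, 7.37, 7.42 and 7.18 log2 CPM, resilient pools 7.93, 7.98, 7.13, 7.53 and 8.03, and susceptible pools 7.60, 7.79, 7.41 and 7.91. Apart from resilient pool 3 and susceptible pool 3, every stressed pool lay above every control. Mag was called higher in resilient (log2 fold change 0.49, SE 0.15, adjusted p = 0.0927) and in susceptible pools (0.44, SE 0.16, adjusted p = 0.123), without passing the adjusted threshold. The exact permutation p was 0.0476 and 0.0159, and without susceptible pool 4 the second call was lost at 0.36.

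Mog, the immunoglobulin-like glycoprotein on the outermost surface of myelin, lies on chromosome 17 (37010743 to 37023398, minus strand). It ranged from 5.84 to 6.20 log2 CPM in controls, from 5.53 to 6.49 in resilient and from 6.00 to 6.47 in susceptible pools. The lowest and the highest of all its values, in resilient pools 3 and 1, came from the same group. Log2 fold changes were 0.12 (95% interval -0.20 to 0.45) and 0.13 (-0.22 to 0.48). Without resilient pool 3 the first rose to 0.28, and Mog was then called higher.

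**Figure D2:**
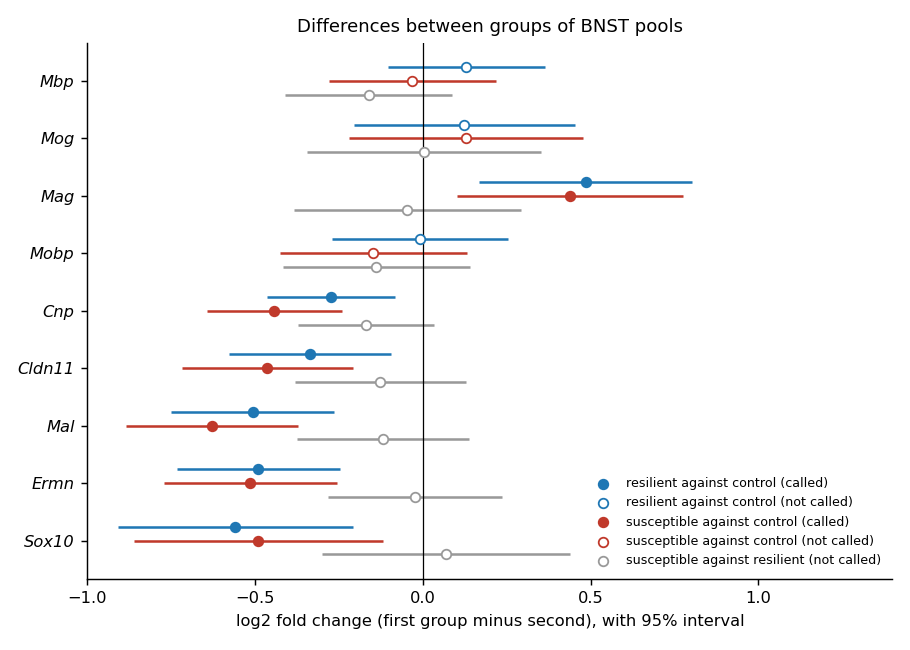
Log2 fold changes of the 9 genes (first group minus second) with 95% intervals from limma; blue, resilient against control; red, susceptible against control; grey, susceptible against resilient. Filled points are called. The intervals of Cnp, Cldn11, Mal, Ermn and Sox10 lie below 0 and those of Mag above 0 in both comparisons with controls, and every grey interval crosses 0.

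Susceptible and resilient pools were then compared with each other. None of the 9 genes was called (0 called lower and 0 higher by limma, and 0 with an unadjusted p under 0.05; voom weights on the recovered reads also gave 0), where 2.14% of all genes were called. The differences ran from -0.17 for Cnp to 0.07 for Sox10. Their 95% intervals reached from -0.42 to 0.44 over the 9 genes, so differences of that size could not be told from 0 with these pools. For Cnp, the gene nearest to the threshold, the interval was -0.37 to 0.03 (unadjusted p = 0.0966 by limma).

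Levels of different genes were compared per kilobase of exon (CPM per kb), with the exons of all annotated transcripts of a gene merged. This merged length exceeded that of the transcript used for the 3' UTR for Mbp (8469 against 4797 bases) and Mobp (6849 against 3286). It did so too for Mag (4072 against 2434), Cnp (3639 against 2357) and Sox10 (3051 against 2780). For Mog, Cldn11, Mal and Ermn the lengths were equal. The orders below rest on this choice of length. In controls the order was Mbp (79.0 ± 7.12, SD, n = 5), Cldn11 (66.8 ± 3.06), Mobp (66.6 ± 5.29), Mal (54.0 ± 4.53), Cnp (53.9 ± 4.58), Mog (38.01 ± 4.34), Mag (37.2 ± 3.92), Ermn (21.3 ± 2.93) and Sox10 (10.6 ± 2.56). The neighbours Cldn11 and Mobp, Mal and Cnp, and Mog and Mag differed by less than their spread. In susceptible pools Mag stood at 50.7 ± 7.58 CPM per kb (SD, n = 4), above Mal (35.3 ± 6.21) and Cnp (39.6 ± 2.78), and within its spread of Cldn11 (48.7 ± 5.99). In resilient pools it stood at 53.3 ± 12.8 (SD, n = 5), near Cldn11 (53.5 ± 9.16).

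Most of the 9 genes varied together within groups. After the group means were subtracted, 7 of the 9 had a Pearson correlation of 0.78 (Cnp) to 0.96 (Mobp) with the mean of the 9 scaled genes, Mag among them (0.83), while Ermn had 0.44 and Sox10 0.028. With the group differences left in, Mobp had 0.90, Cldn11 0.86, Cnp 0.82, Mal 0.81, Ermn 0.64, Mbp 0.60, Mog 0.58, Sox10 0.37 and Mag 0.16. Over the 14 pools, the log2 CPM of Cldn11 and Mal had a correlation of 0.92, Mal and Ermn of 0.86, and Cnp and Mal of 0.85. Mag had a correlation of 0.72 with Mog, of -0.39 with Mal and of -0.52 with Ermn. After the group means were subtracted, Mag and Mal had a correlation of 0.44 and Mog and Mobp of 0.89, whereas Sox10 and Ermn had one of -0.55. The mean holds each gene itself, and these are descriptions over 14 pools that share 3 groups and a common scaling. The genes whose level was most like the mean of the 9 scaled genes were Cd63 (0.94), Ptma (0.94), Nfix (0.94), Igf2 (0.91), Tmem88b (0.91), Shisa4 (0.91), Spop (0.90) and Calm3 (0.90). After the group means were subtracted, they were Ptma (0.94), Cd63 (0.93), Shisa4 (0.93), Pkp4 (0.93), Kif5a (0.93), Nfix (0.92), Atp6v0b (0.91) and Tpm3 (0.91).

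The split between Mag and the 5 lower genes ran alongside a feature of gene structure that was seen across the whole data set. Over 13911 genes with a coding transcript, the log2 fold change rose with the number of exons of the fullest transcript (Spearman rho 0.45 in resilient and 0.41 in susceptible pools, across genes, which are not independent replicates). In susceptible against resilient pools rho was -0.022. In resilient pools the median log2 fold change was -0.32 for the 885 genes with 1 to 2 exons, -0.22 for 3 to 4 exons, -0.11 for 5 to 8, 0.019 for 9 to 15 and 0.12 for 16 or more, and in susceptible pools it rose from -0.30 to 0.12 over the same classes. Length of the transcript (rho 0.089 and 0.048), its GC content (0.089 and 0.13) and length of the 3' UTR (-0.12 and -0.15) had weaker relations. The same relation was read within single pools, as the rho between exon number and the deviation of each gene from its mean over the 14 pools. It was between -0.36 and -0.23 in the 5 controls, between -0.088 (pool 3) and 0.30 in resilient and between -0.069 (pool 1) and 0.29 in susceptible pools.

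Mag has 13 exons, Mog 8, Mbp 7, Sox10 5, Mobp, Cnp and Mal 4 each, and Cldn11 and Ermn 3 each. Among all genes with 3 to 4 exons, 20.1% were called lower in resilient and 18.5% in susceptible pools, shares against which the calls of Cnp, Mal, Cldn11 and Ermn can be read. Against the median of their own exon class, Mal was lower by -0.29 in resilient and -0.42 in susceptible pools, Ermn by -0.27 and -0.31, and Sox10 by -0.45 and -0.40. Cnp (-0.053 and -0.24) and Cldn11 (-0.12 and -0.26) lay nearer to it. Mag lay above the median of its class by 0.47 and 0.40. Mbp (0.24 and 0.059), Mog (0.23 and 0.22) and Mobp (0.21 and 0.056) also lay above theirs, so the 9 genes had no common direction against their classes. When each pool was centred on the median of each exon class, an alternative chosen after the data had been seen, Mal, Ermn and Sox10 were still called lower and Mag higher in both comparisons. Cnp (-0.057 in resilient, -0.26 in susceptible pools) and Cldn11 (-0.12 and -0.28) were then not called, and no gene of the 9 had an adjusted p under 0.05. Over all genes, 1022 were called lower and 1274 higher in resilient pools after this centring, and 1439 lower and 1269 higher in susceptible pools.

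**Figure D3:**
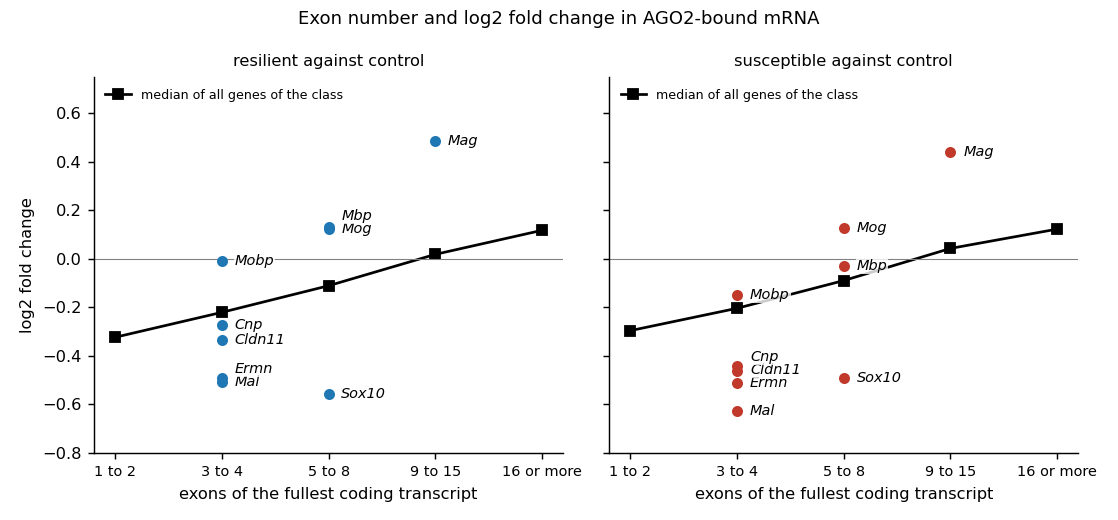
Log2 fold change (y axis) against the number of exons of the fullest coding transcript (x axis, 5 classes), for resilient (left) and susceptible pools (right) against controls. Black squares are medians over all genes of a class and coloured points are the 9 genes. The medians rise from -0.32 to 0.12 on the left. Mal, Ermn, Sox10, Cnp and Cldn11 lie below and Mag, Mog, Mbp and Mobp above the median of their class in both panels.

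To set the 9 genes beside the rest of the lineage, 52 further genes in 4 lists were counted. Of these, 13 were called lower and 6 higher in resilient pools, and 15 lower and 5 higher in susceptible pools, with medians of -0.11 and -0.12 (all genes, -0.021 and -0.011). Of all genes, 9.04% were called lower and 8.65% higher in resilient pools, and 9.28% and 9.65% in susceptible pools. In susceptible against resilient pools 0 were called by limma. Of the 21 genes with 4 exons or fewer, 10 were called lower and 0 higher in resilient pools, and 9 lower and 1 higher in susceptible pools. Of the 31 with 5 or more, 3 were lower and 6 higher in resilient pools, and 6 lower and 4 higher in susceptible pools. Among all genes the share called lower ran from 27.7% (1 to 2 exons) to 2.37% (16 or more) in resilient and from 23.8% to 3.96% in susceptible pools, and the share called higher from 1.36% to 18% and from 1.13% to 20.6%.

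Among 22 other genes of the myelin membrane and the paranode, 7 were lower and 3 higher in resilient pools, and 7 lower and 2 higher in susceptible pools. The shares of all genes were 9.04% lower and 8.65% higher in resilient pools, and 9.28% and 9.65% in susceptible pools. Omg, a glycoprotein on the oligodendrocyte surface, was lower in both, at -0.61 (SE 0.15, adjusted p = 0.0432) in the resilient and -0.53 (SE 0.16, adjusted p = 0.0649) in the susceptible group. Gpm6b, a membrane glycoprotein, and Gjb1, a connexin of oligodendrocyte gap junctions, had -0.58 (adjusted p = 0.036) and -0.55 (adjusted p = 0.0482) in susceptible pools. Cntn2, an adhesion molecule beside the paranode, was higher, by 0.45 (resilient, adjusted p = 0.0512) and 0.49 (susceptible, adjusted p = 0.0339). Hapln2, a link protein of the nodal matrix, was called higher in both (0.54 and 0.42). Cryab, Gpr37 and Nfasc in resilient pools had -0.47, -0.32 and 0.29, and Lpar1 in susceptible pools had -0.46, none with an adjusted p under 0.05.

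The 8 oligodendrocyte transcription factors held 5 lower and 1 higher in resilient pools, and 5 lower and 2 higher in susceptible pools. Over all genes the shares were 9.04% lower and 8.65% higher in resilient pools, and 9.28% and 9.65% in susceptible pools. Sox8, the close relative of Sox10, was lower in both, at -0.53 (resilient, adjusted p = 0.0685) and -0.67 (susceptible, adjusted p = 0.0313). Olig1 (-0.46 and -0.44), Olig2 (-0.40 and -0.40), Nkx2-2 (-0.62 and -0.62) and Tcf7l2 (-0.67 and -0.98) were called lower in both comparisons. Without resilient pool 3 the first value of Tcf7l2 was -0.43, and its call was lost. Myrf, the factor that drives myelin genes together with Sox10, was called higher (0.35 and 0.36), as was Zfp488 in susceptible pools (0.36). Tcf7l2, with 15 exons, and Zfp488, with 2, moved against the direction of their exon class. Olig1 has 1 exon, Olig2 has 2, and Nkx2-2 and Sox8 have 3 each. Of all genes with 1 to 2 exons, 27.7% were called lower in resilient and 23.8% in susceptible pools. With 3 to 4 exons these shares were 20.1% and 18.5%.

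Of 10 genes of myelin lipid metabolism, 1 was lower and 1 higher in resilient pools, which is the share of all genes (9.04% and 8.65%), and 3 lower and 1 higher in susceptible pools (9.28% and 9.65% of all genes), with medians of -0.039 and -0.045. Aspa, which releases acetate from N-acetylaspartate, was called higher in both (0.59 and 0.61). Pla2g16, a phospholipase (-0.28 and -0.46), was called lower in both, and Fa2h and Ugt8a, which make the galactolipids of myelin, in susceptible pools (-0.44 and -0.29). Of 12 genes of oligodendrocyte precursors, 1 was called in resilient pools (Vcan, 0.33, higher) and 0 in susceptible pools by limma, with medians of -0.029 and -0.0041.

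**Figure D4:**
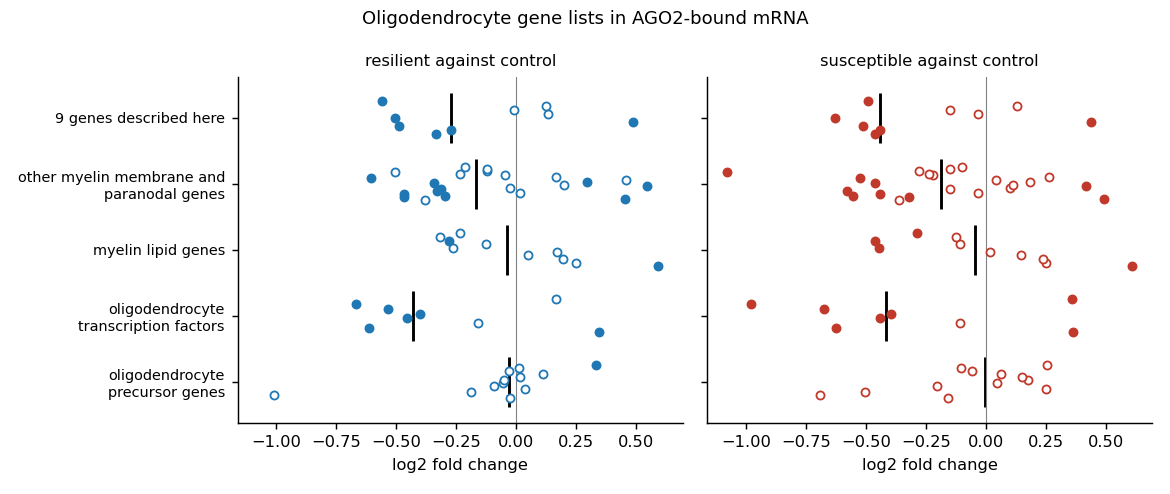
Log2 fold change of each gene of 5 oligodendrocyte lists, in resilient (left) and susceptible pools (right) against controls; points are genes, filled where called, and vertical bars are list medians. The medians of the 9 genes (-0.27 and -0.44) and of the transcription factors (-0.43 and -0.42) lie furthest to the left, and each of the first 4 lists has called genes on both sides of 0.

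Markers of other cells were counted in the same way, beside 9.04% of all genes lower and 8.65% higher in resilient and 9.28% and 9.65% in susceptible pools. Several of these counts, among them those of endothelial genes and those of neuronal and astrocyte genes in resilient pools, are near that background. Of 10 neuronal genes, 2 were called lower in resilient pools (Rbfox3, -0.35; Nefl, -0.29) and 5 in susceptible pools (Rbfox3, -0.66; Nefl, -0.42; Syt1, -0.38; Snap25, -0.45; Slc32a1, -0.49), and 0 higher. The log2 of their summed CPM was 11.28 to 11.47 in controls, 11.14 to 11.29 in resilient and 10.87 to 11.26 in susceptible pools. Of 8 astrocyte genes, 1 was higher in resilient pools (Fgfr3, 0.32), and 3 were lower (Slc1a2, -0.42; Slc1a3, -0.32; Gja1, -0.27) and 2 higher (Fgfr3, 0.38; Aldh1l1, 0.37) in susceptible pools, with a summed level of 10.81 to 10.99 in controls and 10.52 to 10.78 in susceptible pools. Choroid plexus genes, which mark ventricle tissue beside the BNST, were called lower for 5 of 6 in susceptible pools (Ttr, -3.82; Folr1, -2.80; Aqp1, -2.59; Kl, -1.46; Clic6, -0.90) and 1 of 6 in resilient pools (Clic6, -0.88). Their summed level ran from 5.04 to 7.58 in controls, 4.604 to 7.11 in resilient and 3.65 to 5.94 in susceptible pools. Of 8 microglial genes, 1 was lower and 1 higher in resilient pools (P2ry12, -0.54; Csf1r, 0.38), and 2 were lower and 1 higher in susceptible pools (P2ry12, -0.38; C1qb, -0.47; Csf1r, 0.35). Of 7 endothelial genes, 0 were called in resilient pools and 1 in susceptible pools (Flt1, -0.40). Of the Schwann cell genes, the markers of peripheral myelin Prx and Pmp2 were not among the measured genes, and 0 of the 3 that were measured were called by limma (0 in each comparison). The summed level of the 9 genes themselves overlapped between groups (10.79 to 11.02 in controls, 10.69 to 11.10 in resilient, 10.59 to 10.98 in susceptible pools). That of the 22 other myelin membrane and paranodal genes was 12.01 to 12.52 in controls, 11.41 to 12.26 in resilient and 11.40 to 11.96 in susceptible pools, so that every susceptible pool lay below every control. The part of tissue composition in the differences was not tested.

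AGO2-bound miRNAs were measured in 5 control, 5 resilient and 3 susceptible pools (788 miRNAs). They include miR-219 and miR-338, which are enriched in oligodendrocytes and promote their differentiation, and 6 miRNAs that the study pairs with Sox10 (miR-6954-5p), Cldn11 (miR-205-5p, miR-92b-3p and miR-99b-5p) or Cnp (miR-328-3p and miR-874-5p). The study chose the latter on these pools, so their direction is not independent evidence. The mature sequences, with the seed (bases 2 to 8) in capitals, are shown because the seed sets which of the 9 genes hold a match. They are from RefSeq on GRCm38.
miR-219a-5p: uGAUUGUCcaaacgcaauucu
miR-338-3p: uCCAGCAUcagugauuuuguug
miR-92b-3p: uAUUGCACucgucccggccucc
miR-99b-5p: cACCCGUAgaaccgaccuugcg
miR-205-5p: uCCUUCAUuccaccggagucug

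The seeds differ among these 5 miRNAs. A match to the seed of miR-338-3p (letters ATGCTGG, sense strand of the 3' UTR only) was found in 3 of the 9 genes, against 15.3% of 13866 genes with an annotated 3' UTR. The match of miR-92b-3p (GTGCAAT) was found in 1, Cldn11, against 7.94% of genes, and that of miR-205-5p (ATGAAGG) in 4 (Mbp, Mobp, Cldn11 and Mal) against 12.5%. No match to miR-219a-5p or miR-99b-5p was found in these 3' UTRs. The sites below are written 5' to 3' in the sense of the mRNA, as DNA, with the seed match in capitals, and positions are those of the match in GRCm38.
Cldn11, miR-338-3p, chr3:31163343-31163349, plus strand: gtgctgtaaATGCTGGgcctgggcc
Mal, miR-338-3p, chr2:127633679-127633685, minus strand: ggggtttgcATGCTGGgtaagcact
Mobp, miR-338-3p, chr9:120175370-120175376, plus strand: cccacacgaATGCTGGgtaggcctg
Cldn11, miR-92b-3p, chr3:31164296-31164302, plus strand: gtaaaatctGTGCAATaaaataaca
Cldn11, miR-205-5p, chr3:31163972-31163978, plus strand: ttcaccaatATGAAGGaaatgaacc

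None of the 6 measured forms of miR-219 and miR-338 was called in resilient (0 of 6 by limma, 0 with an unadjusted p under 0.05; 9.52% of all miRNAs were called), in susceptible pools (0 and 0; 4.70% called) or between susceptible and resilient pools (0 and 0; 3.93% called). miR-338-3p stood at 10.47 ± 0.16 log2 CPM in controls (SD, n = 5), 10.73 ± 0.37 in resilient (n = 5) and 10.52 ± 0.33 in susceptible pools (n = 3), and miR-219a-2-3p at 10.09 ± 0.12, 10.17 ± 0.32 and 10.10 ± 0.32. miR-338-5p lay between 7.20 and 7.29 in the group means, and miR-219a-1-3p between 2.87 and 3.44. miR-219a-5p is listed as 2 forms with 1 mature sequence, at 5.83 ± 0.24 and 1.096 ± 1.47 in controls, and how reads were divided between the copies is not given in the sources used here. Log2 fold changes over the 6 forms ran from -0.092 to 0.40 in resilient and from -0.061 to 0.57 in susceptible pools. With quantile normalization, and also without pool 3 of the resilient group, miR-338-3p was called between resilient and control pools. It was also called between susceptible and resilient pools when resilient pool 3 or susceptible pool 4 was removed, against -0.22 and no call with all pools.

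Of the 6 paired miRNAs, 3 were called in resilient pools, 2 in susceptible pools and 1 between the stressed groups. miR-92b-3p stood at 15.38 ± 0.18 log2 CPM in controls, 15.02 ± 0.30 in resilient and 15.01 ± 0.07 in susceptible pools. It was called lower in both (log2 fold change -0.36, SE 0.13, adjusted p = 0.303, and -0.37, SE 0.15, adjusted p = 0.884). miR-99b-5p was called lower in susceptible pools (-0.48, SE 0.14, adjusted p = 0.602), and miR-328-3p in resilient pools (-0.54, SE 0.13, adjusted p = 0.114), with 0.31 between susceptible and resilient pools (SE 0.15, adjusted p = 0.983). The last of these calls was lost in 10 of the 13 fits that leave out 1 pool (range 0.21 to 0.45). The call of miR-99b-5p was lost without susceptible pool 1 (-0.31; -0.71 without susceptible pool 4), and that of miR-92b-3p was lost with quantile normalization in both comparisons (-0.17 in each), on removal of resilient pool 2 in the resilient one, and on removal of control pool 1 or susceptible pool 4 in the susceptible one. miR-205-5p, with between 0 and 43 reads per pool, was called lower in resilient pools (-1.80, SE 0.80, adjusted p = 0.354). Without resilient pool 2, which had 0 reads, its value was -0.89 and was not called. That call was lost in 5 of the 13 fits that leave out 1 pool. It was lost too without the mean-variance trend and with quantile normalization. miR-6954-5p (-1.58 in resilient and 0.95 in susceptible pools) and miR-874-5p (-0.17 and -0.46) were not called.

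Of the 9 genes, 5 were also among the 13084 genes of the blood data (Mbp, Mag, Mobp, Cnp and Mal). Mog, Cldn11, Ermn and Sox10 were not among them. The Mbp locus also gives rise to golli transcripts in blood cells, and Cnp is expressed outside the nervous system. Over the 25 mice, Cnp ran from 6.22 to 6.92 log2 CPM (median 6.67) and Mbp from 5.75 to 6.88 (median 6.22). Mal (median -0.35, 2 to 69 reads) and Mag (median -0.79, 0 to 21 reads) were near the lower limit. Mobp had a median of 1.98 and ran from -4.44 to 4.40, or from 0 to 292 reads, and its range was narrowest in B6 susceptible mice (1.68 to 3.35) and widest in D2 controls (-4.44 to 2.54).

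None of the 5 genes was called in blood by limma, and 0 had an unadjusted p under 0.05 in any of the 4 comparisons. Of all blood genes, 2.11% were called in B6 resilient mice against controls, 4.50% in B6 susceptible mice against controls, 2.03% between these 2 stressed groups and 1.57% in D2 susceptible mice against controls. For Mbp, log2 fold changes were 0.090, 0.13, 0.045 and -0.10 in the order of these comparisons, and for Cnp 0.099, 0.18, 0.086 and -0.11. The effect of defeat did not pass the test of a difference between strains for any of the 5, with Cnp nearest at 0.29 (unadjusted p = 0.0852, adjusted p = 0.957 by limma). In D2, 2 mice have a column name that gives another group than their label. Under the column names, Mobp was called higher in D2 susceptible mice (3.06, SE 1.11, adjusted p = 0.686), against 1.37 (SE 1.24, adjusted p = 0.999) with the labels. For Mal the D2 value was -1.06 (SE 0.57, adjusted p = 0.999) with the labels and -0.12 (SE 0.60, adjusted p = 0.988) under the column names, and neither was called.

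**Figure D5:**
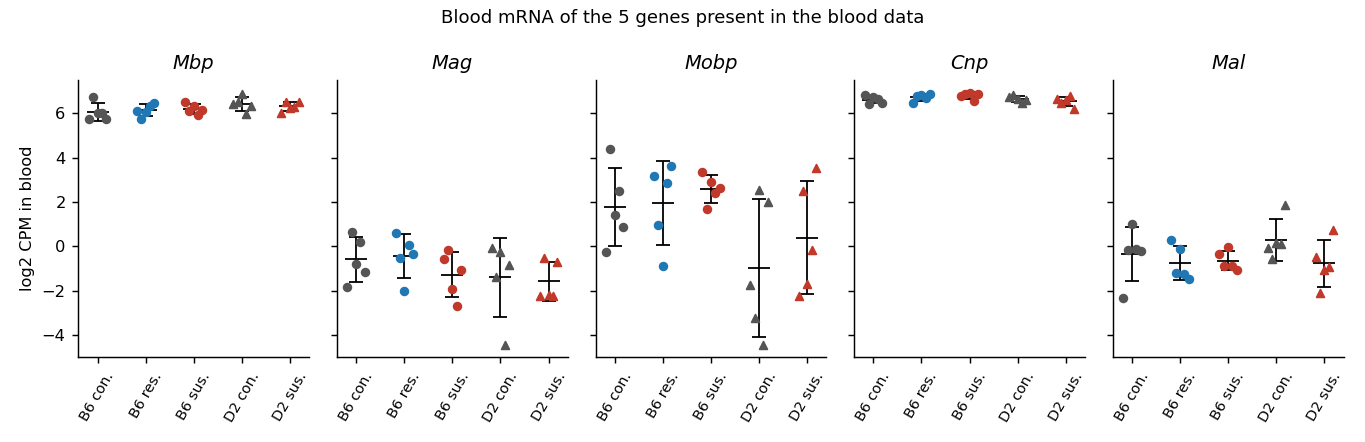
Log2 CPM in blood of the 5 genes present there; points are single mice (circles B6, triangles D2; 5 per group), horizontal bars are means and whiskers are SD. Mbp and Cnp keep within about 1 log2 unit over all 25 mice, whereas Mobp runs from -4.44 to 4.40.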

How the data were processed

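AGO2-bound mRNA and miRNA of BNST pools and mRNA of blood were analysed; blood miRNA, total RNA and proteins were not used here. Per the paper's methods, the authors aligned mRNA reads to GRCm38 with STAR, counted them on genes with HTSeq, quantified miRNAs with miRDeep2, removed features under 1 CPM and transformed counts with voom. The deposited values are log2 CPM, without the ComBat correction that the authors describe (for experimental cohort in AGO2 mRNA): each value was a whole number of reads within 0.0001. Samples were grouped by their labels. For 2 blood mice the names of the data columns give another group than the label.

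The deposited log2 values were fitted with limma 3.58.1 (R 4.3.3), two-sided, with a mean-variance trend and every group of each data set fitted together. Calls followed the study's criteria, an unadjusted p below 0.05 with a fold change of 1.2 or more. Exact permutation tests over pools (two-sided) can reach 0.00794 at the smallest in comparisons of mRNA pools. The procedure was tested on simulated data. Exon numbers, 3' UTRs and positions are from GENCODE M21 (GRCm38), which held 16535 of the 16587 genes; seed matches were searched in the annotated 3' UTR of 1 transcript per gene. Alternatives were the scaling, filters, weights, pseudocounts, single samples left out, a replicate block and exon number centring.

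The 9 genes and all lists were chosen with earlier results of these data known. Named were every one of the 9, of each other list the called genes (at least the 6 with the smallest p where more were called) and absent markers, the 8 genes most like the mean of the 9, and all listed miRNAs; a few genes that the rule names are not reported here. Intervals cover the spread between these samples only.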

Additional observations from a re-analysis of the deposited data

Results flagged for a closer look

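Of 76 groups of 4 or 5 samples, over the 9 genes in AGO2 mRNA, the listed miRNAs and the 5 genes in blood, 3 held a sample that stood far from the others, where chance gives about 5% of groups. Mog in susceptible pool 4 was at 6.47 log2 CPM, against 6.07 in the next pool. Without that pool the log2 fold change of Mog in susceptible pools was 0.018, against 0.13 with it, and neither was called. In blood, Mbp of B6 control mouse 2 was at 6.75 against 6.02 in the next mouse. The same mouse held the highest Mobp (4.40) and the highest Mag (0.64) of all 25 mice, and the cause was not tested. Mal of D2 control mouse 2 was at 1.88 against 0.13. That D2 mouse is 1 of the 2 whose column name gives the other group. The D2 log2 fold change of Mal was -1.06 with the labels and -0.12 under the column names.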

How the results depend on the processing

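With other scalings, weights, filters, pseudocounts or models (10 alternatives, the replicate block among them), the 9 genes gave 5 called lower and 1 higher in both comparisons with controls, and 0 between the stressed groups. Pools of the same number had weak correlations of their deviations (between -0.17 and 0.14 for mRNA pools and between -0.10 and 0.096 for miRNA pools). These values cannot show whether pools of the same number shared a cohort. With the replicate block, 9 of the 52 other lineage genes were lower and 6 higher in resilient and 14 lower and 6 higher in susceptible pools.

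Leaving out single pools moved the genes called lower in resilient pools from 3 (without resilient pool 3) to 5, those called higher from 1 to 2 (without resilient pool 3), and those called higher in susceptible pools from 0 (without susceptible pool 4) to 1. Among the 52 genes, those lower in resilient pools ran from 9 to 14 and those higher from 4 to 8, those lower in susceptible pools from 10 to 17 and those higher from 3 to 8, and those lower between the stressed groups from 0 to 2. They were 8 higher in susceptible pools with total reads as library size, and with sample weights 8 lower in resilient pools and 1 lower between the stressed groups. With exon number centring, chosen after seeing the data, 3 of the 9 genes were lower in each comparison with controls, as were 3 (resilient) and 7 (susceptible) of the 52. Over all genes, 1022 were then called lower in resilient and 1439 in susceptible pools. At least 1 left-out pool ended the calls of Nfasc, Aspa, Pla2g16, Olig2, Nkx2-2, Tcf7l2 and Vcan in resilient pools and of Hapln2, Lpar1, Aspa, Ugt8a, Olig1, Olig2, Nkx2-2, Myrf and Zfp488 in susceptible pools. The listed miRNAs called ran from 1 to 5 in resilient pools, 1 to 3 in susceptible pools and 0 to 3 between them as pools were left out. They were 1 in susceptible pools and 2 between the stressed groups with quantile normalization, and between these groups 0 with no trend and 3 with sample weights. In D2 blood, 1 gene was called with sample weights (Mal), 1 with the groups of the column names (Mobp), and 0 to 1 as mice were left out (Mal, without B6 control 1, D2 control 3 or D2 susceptible 5). The cause was not tested.

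Small differences changed sign. Mobp in resilient pools was 0.028 with sample weights, 0.21 with centring and between -0.068 and 0.074 with pools left out, and in susceptible pools 0.038 with centring. Mbp in susceptible pools was 0.087 with quantile normalization, 0.041 with total reads, 0.058 with centring and between -0.079 and 0.051 with pools left out. Gjb1 in resilient pools was 0.016 with centring. Between the stressed groups, Mog was -0.067 with sample weights, -0.0053 with size factors, -0.017 with centring and between -0.15 and 0.094 with pools left out. Mag was 0.015 with quantile normalization, 0.032 with total reads and between -0.19 and 0.042, Ermn 0.054 with total reads and between -0.074 and 0.056, and Sox10 between -0.029 and 0.15. With 3 to 5 pools per group, differences inside the intervals given cannot be told from 0.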

Other observations

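The difference between Mag and Mal within a pool is not changed by a scaling factor common to a pool. It was chosen after the values had been seen and has no test. Mag minus Mal, on the log2 scale of CPM, ran from -0.19 to 0.23 in the 5 control pools, from 0.63 to 1.35 in the 5 resilient pools and from 0.82 to 1.53 in the 4 susceptible pools. Resilient pool 3, the deepest pool, held the lowest value of the stressed pools. It was also the resilient pool in which genes with many exons were not raised (rho -0.088 with exon number, against 0.16 to 0.30 in the other 4). Susceptible pool 1 held the lowest difference of its group (0.82) and a rho of -0.069, but had the fewest reads of that group (5146998). A relation to depth was not tested.

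Among genes outside the lineage, Sst, the neuropeptide somatostatin of inhibitory BNST neurons, was called lower in resilient (-0.41, SE 0.17, adjusted p = 0.177) and in susceptible pools (-0.65, SE 0.18, adjusted p = 0.0482) by limma. Esr1, the estrogen receptor alpha, was called higher in susceptible pools (0.61, SE 0.29, adjusted p = 0.233).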
